A study of Mus musculus with 12 samples.

Results

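Transcripts of 8 genes of osteoclast fusion and bone resorption (*Tnfrsf11a*, *Oscar*, *Nfatc1*, *Dcstamp*, *Ocstamp*, *Atp6v0d2*, *Acp5* and *Ctsk*) were followed in sorted synovial macrophages. They were chosen by symbol and were 8 of the 26699 gene symbols counted. Explants of synovium, the membrane that lines the joint, came from wild-type mice of C57BL/6J background (C57BL/6 in the labels). Calcitonin gene-related peptide (CGRP), a neuropeptide of nociceptors, was added at 100 nM to some explants and vehicle to the others, and 4 h later the tissue was digested. Cell sorting then gave the RNA-seq samples: MHCII+CD11c- macrophages, called IAIE in the sample titles, and MHCII+CD11c+ macrophages, called CD11c. Each of the 4 groups of subset and treatment had 3 libraries. CGRP acted on the whole explant, so the sorted cells were exposed together with the fibroblasts, vessels and nerve endings around them. The study used mice of both sexes and states an age range for its in vivo experiments. Neither the sex nor the age of the animals behind these libraries is given in the sources used here, nor whether replicates were separate animals. The p-values therefore measure the spread between these libraries, part of which may be technical.

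Osteoclasts arise from cells of the monocyte and macrophage lineage when the cytokines M-CSF and RANKL act on their receptors CSF1R and RANK. RANK, helped by immunoglobulin-like co-receptors such as OSCAR, switches on the transcription factor NFATc1, which drives genes for cell fusion (DC-STAMP, OC-STAMP and the d2 subunit of the proton pump) and for resorption (the phosphatase TRAP and the collagen-cutting protease cathepsin K). Macrophages and dendritic cells can carry some of these transcripts without being osteoclasts, and DC-STAMP was first described in dendritic cells.

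The promoter windows of *Acp5*, *Ctsk* and *Oscar*, well-known targets of NFATc1, are shown because *Nfatc1* itself passed the test between the subsets among controls, whereas *Acp5* and *Ctsk* passed in no comparison and *Oscar* had too few counts to be tested. RefSeq windows of 250 bases before to 50 bases after a transcript start (GRCm38.p6) were used for 4 of the 8 genes. The other of these 4 was *Tnfrsf11a*, whose window held none of the motifs searched. No window was used for *Nfatc1*, which does not mean that it has none. *Acp5* has 3 windows, and the one shown, at the RefSeq start of the gene, lies at chr9:22135697-22135996 on the minus strand, the *Ctsk* window at chr3:95498960-95499259 on the plus strand and the *Oscar* window at chr7:3616108-3616407 on the minus strand. Each is written 5′ to 3′, and capitals mark the NFAT core GGAAA or the loose motif TCANGTG (N is any base), read on either strand.
Acp5: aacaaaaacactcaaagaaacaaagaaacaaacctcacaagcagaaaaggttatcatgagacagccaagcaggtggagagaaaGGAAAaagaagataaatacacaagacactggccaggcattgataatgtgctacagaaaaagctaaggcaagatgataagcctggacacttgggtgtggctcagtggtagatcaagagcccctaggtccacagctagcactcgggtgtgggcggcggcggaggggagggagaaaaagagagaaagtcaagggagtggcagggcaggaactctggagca
Ctsk: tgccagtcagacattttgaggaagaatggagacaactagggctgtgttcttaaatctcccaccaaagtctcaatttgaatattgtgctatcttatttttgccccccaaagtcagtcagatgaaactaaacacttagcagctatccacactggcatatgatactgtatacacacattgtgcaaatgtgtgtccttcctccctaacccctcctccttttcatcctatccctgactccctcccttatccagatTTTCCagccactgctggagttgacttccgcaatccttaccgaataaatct
Oscar: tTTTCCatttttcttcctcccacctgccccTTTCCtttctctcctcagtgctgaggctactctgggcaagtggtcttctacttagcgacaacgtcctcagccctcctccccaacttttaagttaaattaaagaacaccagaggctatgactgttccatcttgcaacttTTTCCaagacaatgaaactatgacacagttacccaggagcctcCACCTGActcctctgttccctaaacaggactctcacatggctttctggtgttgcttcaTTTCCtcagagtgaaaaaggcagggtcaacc
GGAAA occurred once each in the *Acp5* and *Ctsk* windows and 4 times in that of *Oscar*, and 61.3% of all 32851 windows held it. TCANGTG occurred once, in the *Oscar* window, against 14.3% of all windows. The other two *Acp5* windows held 1 and 2 matches to GGAAA and 0 and 1 to TCANGTG. Neither the AP-1 motif TGANTCA (7.81% of all windows) nor the cAMP response element TGACGTCA (1.79%) was found in the 3 windows. These letters are a description of the windows and do not mark bound sites.

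The deposited values were raw read counts per gene symbol, with library totals between 2127191 and 5649698. Counts were scaled to library size as CPM with TMM factors and tested with edgeR. A gene counts as past the threshold at a Benjamini-Hochberg adjusted p under 0.05 over all 11927 genes tested. Of the 8 genes, 7 had enough counts to be tested and *Oscar* did not. Markers of macrophages summed to between 3785 and 9232 CPM in every library. Those of fibroblasts summed to between 26.5 and 1577 CPM, those of dendritic cells to between 89.2 and 785 CPM, and those of endothelial cells to between 10.3 and 117.9 CPM. Bone-forming cells were little represented: their markers summed to at most 19.8 CPM, in CD11c CGRP replicate 2. There *Runx2* gave 11.9 CPM and *Ibsp* 7.43 CPM (30 counts). Of the osteocyte genes, *Dmp1* was at 0 counts in all libraries but 1, and *Sost* had 0 to 6 counts.

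The plot of CPM by library shows the 8 genes in the 4 groups, and the 2 subsets differed most in the fusion gene *Dcstamp*.

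**Figure D1:**
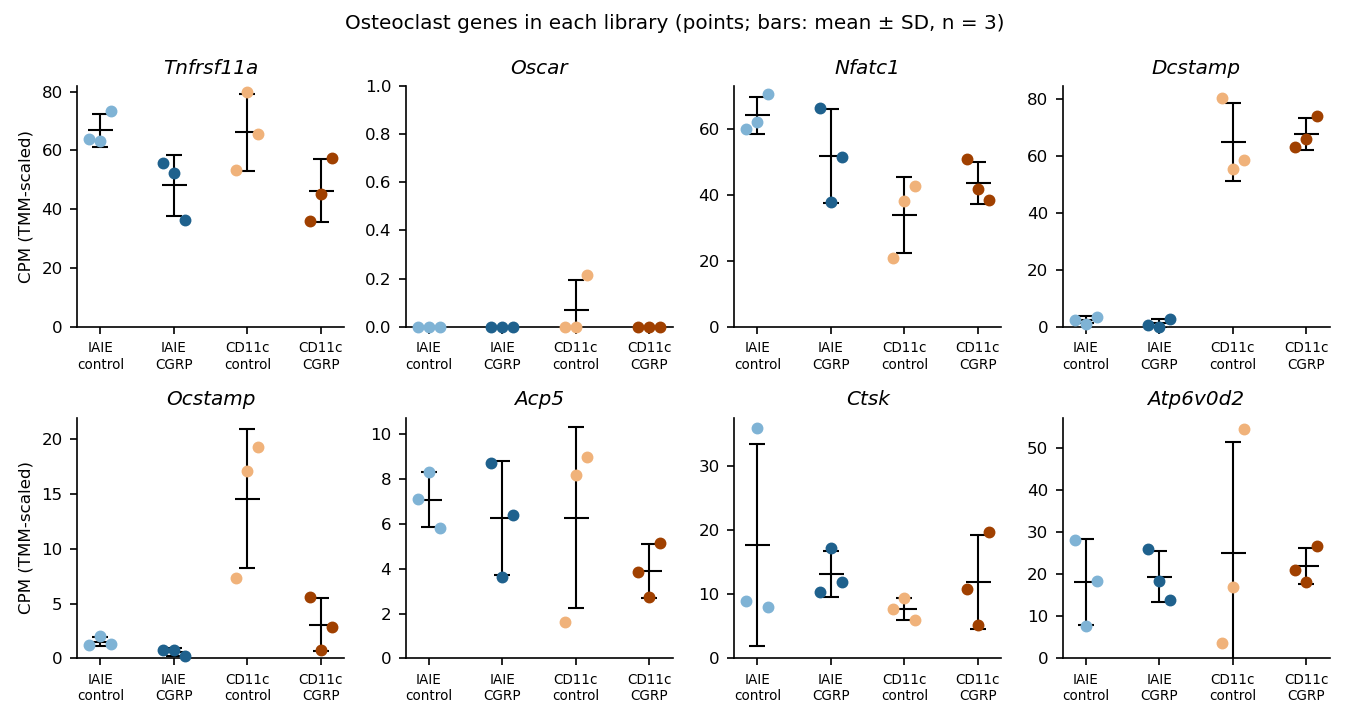
TMM-scaled CPM (y axis, from 0, one scale per gene) of the 8 genes in the 4 groups of subset and treatment. Points are libraries and bars the mean ± SD of 3 libraries, and lower bars that would pass below 0 end there. *Dcstamp* lay at 55.4 CPM or above in every CD11c library and at 3.58 CPM or below in every IAIE library.

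Among receptors, *Tnfrsf11a*, which encodes RANK (chr1:105780718-105847981, plus strand), was well expressed in both subsets. It stood at 63.9, 63.4 and 73.4 CPM in the IAIE control libraries (replicates 1 to 3) and at 55.9, 52.2 and 36.2 CPM in the IAIE CGRP libraries. In CD11c cells it stood at 53.4, 79.7 and 65.4 CPM in control and at 36.1, 45.3 and 57.5 CPM in CGRP libraries. All 3 IAIE CGRP libraries lay below all IAIE controls, and in CD11c cells the highest CGRP library lay above the lowest control. The log2 difference with CGRP was -0.48 ± 0.21 (SE) in IAIE cells (unadjusted p = 0.0338, adjusted p = 0.183) and -0.52 ± 0.21 in CD11c cells (unadjusted p = 0.0205, adjusted p = 0.123), so neither passed the threshold. Between subsets *Tnfrsf11a* differed by -0.01 ± 0.21 in control libraries, with a 95% interval of -0.44 to 0.43 on the log2 scale. Of its exonic 50-base words, 0.57% are shared with *Gadl1*.

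*Oscar*, the collagen-binding co-receptor (chr7:3609813-3616157, minus strand), had 1 count in CD11c control replicate 3 and 0 counts in the other 11 libraries. A count of 0 allows up to 3 counts, which correspond to between 0.534 and 1.34 CPM in these libraries, and this limit covers counting error only. *Oscar* was therefore not detectable at this depth.

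The transcription factor gene *Nfatc1* (chr18:80606205-80713071, minus strand) was lower in CD11c than in IAIE cells among controls. It stood at 60.2, 62.2 and 70.7 CPM in IAIE control libraries and at 20.8, 38.1 and 42.9 CPM in CD11c control libraries. With CGRP the IAIE libraries held 66.4, 37.9 and 51.7 CPM and the CD11c libraries 51.0, 41.8 and 38.6 CPM. The control groups did not overlap, and the CGRP groups did. The subset difference was -0.90 ± 0.24 in control libraries (adjusted p = 0.0111) and -0.25 ± 0.23 in CGRP libraries (adjusted p = 0.561), on the log2 scale. The change with CGRP was -0.31 ± 0.24 in IAIE cells and 0.34 ± 0.24 in CD11c cells. The difference between these effects, 0.65 ± 0.33, did not pass the test of the interaction (adjusted p = 0.611). CD11c control replicate 1 was the lowest library for *Nfatc1*, and without it the control difference was -0.65 (adjusted p = 0.0560). The same library held 117.9 CPM of endothelial markers, against 17.3 and 11.6 CPM in the other CD11c controls. There *Cdh5* had 112, *Plvap* 105 and *Pecam1* 70 counts, whereas *Kdr* had 2 and *Emcn* 0. These markers also summed to 76.9 and 88.1 CPM in CD11c CGRP replicates 1 and 3. The part of endothelial RNA in the *Nfatc1* result was not tested.

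*Dcstamp*, whose membrane protein is needed for osteoclasts and macrophage giant cells to fuse (chr15:39745930-39760938, plus strand), was the clearest difference between the subsets. It stood at 80.4, 55.4 and 58.6 CPM in CD11c control libraries and at 2.48, 1.15 and 3.58 CPM in IAIE control libraries. With CGRP the CD11c libraries held 62.9, 65.8 and 74.0 CPM and the IAIE libraries 0.794, 0 and 2.83 CPM. Every CD11c library lay far above every IAIE library. The log2 difference was 4.81 ± 0.44 in control libraries (28.0-fold, adjusted p = 3.3e-07) and 5.63 ± 0.45 in CGRP libraries (49.7-fold, adjusted p = 4.12e-08). The IAIE values rest on 0 to 15 counts per library, so the size of the fold is less certain than its direction. Without IAIE CGRP replicate 3, which held 15 of those counts, the difference in CGRP libraries was 7.36, and without IAIE CGRP replicate 2 it was 5.10 (adjusted p = 3.64e-08 and 1.97e-07). In bulk samples, a change in the share of cells that carry a transcript and a change in RNA per cell cannot be told apart, which holds for every gene here. With CGRP, *Dcstamp* in CD11c cells had a log2 change of 0.07 (adjusted p = 0.938), with a 95% interval of -0.58 to 0.72. In IAIE cells the change was -0.76 ± 0.64 (adjusted p = 0.558), and it ran from -2.47 to -0.22 when 1 library was left out.

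*Ocstamp*, which encodes a related fusion protein (chr2:165393760-165400405, minus strand), was, like *Dcstamp*, higher in CD11c cells, and it fell with CGRP in that subset. CD11c control libraries held 7.34, 17.1 and 19.3 CPM (18, 73 and 90 counts) and CD11c CGRP libraries 5.56, 0.743 and 2.85 CPM (29, 3 and 16 counts). IAIE control libraries held 1.24, 2.01 and 1.34 CPM and IAIE CGRP libraries 0.794, 0.729 and 0.189 CPM, with 3, 3 and 1 counts. All CD11c CGRP libraries lay below all CD11c controls. The gap between the lowest control and the highest CGRP library was small beside the spread of the controls. In CD11c cells the log2 change with CGRP was -2.24 ± 0.59 (adjusted p = 0.0184), with a 95% interval of -3.48 to -0.99. *Ocstamp* entered the test through its counts in CD11c libraries, mainly the controls, which are the high side of this comparison. This call was lost when any 1 of 4 libraries was left out: CD11c control replicate 2 (adjusted p = 0.0693) or 3 (0.107), or CD11c CGRP replicate 2 (0.0715) or 3 (0.0678). In IAIE cells the summed counts, scaled to library size, were 2.95 times higher in control than in CGRP libraries (95% counting interval 1.11 to 8.64), and the edgeR change did not pass (-1.46 ± 0.83, adjusted p = 0.332). The CGRP effects in the 2 subsets were not shown to differ (interaction -0.78 ± 1.12, adjusted p = 0.912).

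Among control libraries *Ocstamp* was higher in CD11c than in IAIE cells by 3.22 ± 0.67 on the log2 scale (adjusted p = 0.00169), and these groups did not overlap. Among CGRP libraries the fitted difference was 2.45 ± 0.75 (adjusted p = 0.0291), and the lowest CD11c library lay below the highest IAIE library. There the ratio of summed counts scaled to library size, 48 against 7 counts, was 6.08 (95% counting interval 2.74 to 15.9). That call was lost with 1 surrogate variable (difference 2.49, adjusted p = 0.0622), with limma-voom (2.17, adjusted p = 0.189) and when any 1 of 5 CGRP libraries was left out (differences 1.72 to 2.75, adjusted p = 0.0526 to 0.188). In CD11c control libraries *Ocstamp* had 9.14%, 30.8% and 33.0% of the counts of *Dcstamp*, and in CD11c CGRP libraries 8.84%, 1.13% and 3.85%. The lowest control share lay close to the highest CGRP share, and no test was made of this ratio. Of the exonic 50-base words of *Ocstamp*, 2.8% are shared with the predicted gene *Gm37266*, so a small part of its counts is uncertain.

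Most of the tested dendritic cell markers moved with *Dcstamp* and *Ocstamp* between the subsets. All 8 listed markers were counted, 6 were tested, and 4 passed as higher in CD11c cells among control libraries and 4 among CGRP libraries, where 10.2% and 8.36% of all genes did so. Their sum ranged from 107.6 to 173.7 CPM in IAIE control, 89.2 to 115.7 CPM in IAIE CGRP, 625 to 691 CPM in CD11c control and 681 to 785 CPM in CD11c CGRP libraries. The defining gene *Zbtb46* had 186 to 390 counts in CD11c and 19 to 53 in IAIE libraries, and *Clec9a* had 0 to 16 in CD11c libraries. *Flt3* and *Xcr1* did not pass between the subsets (edgeR adjusted p = 0.186 and 0.877 in control, 0.202 and 0.338 in CGRP libraries). With CGRP in CD11c cells, where *Ocstamp* fell, these markers moved both ways: 2 of the 6 fell and 1 rose. *Cd209a* went from 289.9 to 303.9 CPM in control to 68.3 to 87.4 CPM in CGRP libraries and *Flt3* from 16.3 to 19.9 CPM to 1.49 to 7.29 CPM. *Ccr7* went from 201.5 to 260.0 CPM to 514.9 to 618.1 CPM. The part of dendritic cells in the differences of *Dcstamp* and *Ocstamp* was not tested.

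*Atp6v0d2*, the d2 subunit of the proton pump that acidifies the resorption space and also serves fusion (chr4:19876841-19922605, minus strand), spread widely between replicates. It stood at 28.2, 7.74 and 18.4 CPM in IAIE control and at 25.9, 18.5 and 13.9 CPM in IAIE CGRP libraries. In CD11c cells it stood at 3.67, 17.1 and 54.5 CPM in control and at 21.1, 18.1 and 26.7 CPM in CGRP libraries. The lowest and the highest of the 12 libraries were both CD11c controls, and all groups overlapped. Its 4 log2 differences lay between -0.23 and 0.52, with SEs of 0.54 to 0.57, and none passed the threshold. The ubiquitous d1 subunit gene *Atp6v0d1* varied less, with group means of 160.1 ± 11.9 (SD, n = 3), 138.3 ± 4.45, 115.7 ± 6.59 and 119.6 ± 6.98 CPM in IAIE control, IAIE CGRP, CD11c control and CD11c CGRP libraries. Unlike d2, *Atp6v0d1* passed as lower in CD11c than in IAIE controls (-0.47 ± 0.13 on the log2 scale, edgeR adjusted p = 0.0107). That call was lost in 2 of the 12 fits that left out 1 library. Per kilobase of exon, d2 made up between 1.93% and 24.1% of the sum of d1 and d2, both extremes being CD11c controls.

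*Acp5*, which encodes the phosphatase TRAP used to stain osteoclasts (chr9:22126727-22135711, minus strand), was low in every group. It stood at 7.13, 8.31 and 5.82 CPM in IAIE control and at 8.73, 3.64 and 6.41 CPM in IAIE CGRP libraries. CD11c control libraries held 1.63, 8.18 and 9.01 CPM and CD11c CGRP libraries 3.84, 2.72 and 5.16 CPM. The groups overlapped in all 4 comparisons. The differences ranged from -0.71 to -0.14 on the log2 scale with SEs of 0.53, and none passed the threshold. With CGRP in CD11c cells the interval of the log2 change, -1.82 to 0.40, leaves room for a fall or a small rise. Of its exons, 6.75% lie under the antisense gene *6530413G14Rik*, and the strand setting of the counting is not given in the sources used here.

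*Ctsk*, the gene of cathepsin K, which cuts bone collagen (chr3:95499256-95509362, plus strand), was high in single libraries. It stood at 8.996, 35.8 and 8.06 CPM in IAIE control and at 10.3, 17.3 and 11.9 CPM in IAIE CGRP libraries. CD11c control libraries held 7.75, 9.35 and 6.01 CPM and CD11c CGRP libraries 10.7, 5.20 and 19.8 CPM. IAIE control replicate 2 stood above all other libraries, and all groups overlapped. The subset difference among controls was -1.22 ± 0.53 (unadjusted p = 0.032, adjusted p = 0.113), and -0.14 (adjusted p = 0.889) without IAIE control replicate 2. Without a filter on low counts, which adds genes to the fit, it passed (adjusted p = 0.0311). The change with CGRP was -0.45 ± 0.50 in IAIE cells and 0.64 ± 0.52 in CD11c cells (adjusted p = 0.674 and 0.539).

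Fibroblasts, which also make cathepsin K, were represented unevenly. All 12 fibroblast markers were counted and their sum was 172 to 1395 CPM in IAIE control, 53.9 to 1577 CPM in IAIE CGRP, 26.5 to 38.4 CPM in CD11c control and 82.9 to 390 CPM in CD11c CGRP libraries. IAIE control replicate 2, the library with the most *Ctsk*, had 2337 counts of *Col1a1* against 113 and 205 in the other IAIE controls. IAIE CGRP replicate 1 had the highest sum, 1577 CPM, of which *Prg4* alone gave 1433 CPM (5416 counts). Its *Col1a1* was 53.5 CPM, against 670 CPM in IAIE control replicate 2, and its *Ctsk* was 10.3 CPM. In CD11c control libraries, 5 of the 12 markers were at or under 3 counts throughout. There *Col1a1* had 23, 44 and 27 counts (replicates 1 to 3) and *Ctsk* 19, 40 and 28. The part of fibroblast RNA in the *Ctsk* differences was not tested.

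**Figure D2:**
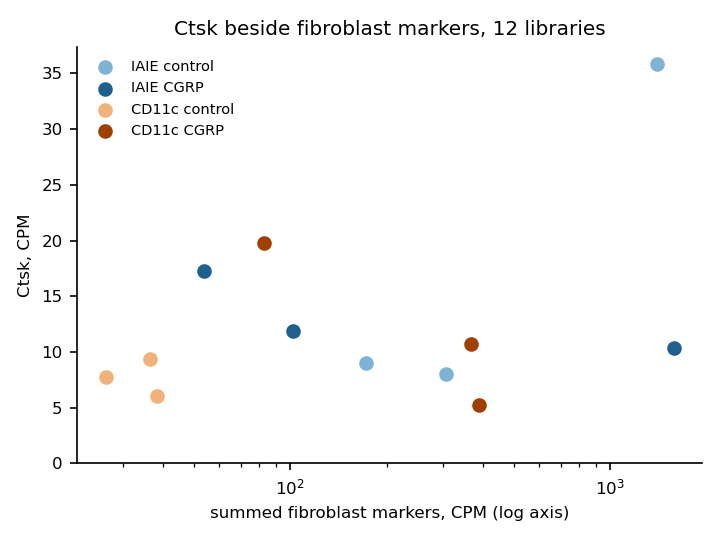
*Ctsk* (y axis, CPM) against the summed fibroblast markers (x axis, CPM, log axis) in the 12 libraries, coloured by group. IAIE control replicate 2 is high on both axes (35.8 and 1395 CPM). IAIE CGRP replicate 1 is high on the x axis alone (10.3 and 1577 CPM), where *Prg4* gave 1433 CPM of the sum.

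Per kilobase of exon, the order of the genes differed between the subsets. *Dcstamp* was first in CD11c cells, at 24.3 ± 5.10 (SD, n = 3) CPM per kb in control and 25.4 ± 2.16 CPM per kb in CGRP libraries, and no library of the next gene reached its lowest library. In IAIE cells it was sixth, at 0.902 ± 0.458 and 0.453 ± 0.548 CPM per kb. *Ctsk* (11.7 ± 10.4 and 8.70 ± 2.40 CPM per kb in control and CGRP) and *Tnfrsf11a* (11.2 ± 0.945 and 8.04 ± 1.75 CPM per kb) led there, and their ranges overlapped. The middle of the order, from *Tnfrsf11a* to *Nfatc1* in IAIE CGRP and from *Atp6v0d2* to *Nfatc1* in CD11c CGRP libraries, had overlapping neighbours. *Acp5* stayed below *Nfatc1* in both CGRP groups without overlap, at 3.09 ± 1.26 CPM per kb in IAIE and 1.92 ± 0.601 CPM per kb in CD11c cells. *Oscar* was last in all 4 groups.

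Counted over the 7 genes tested, CGRP in IAIE cells changed 0 past the threshold, where 9.21% of all genes passed (edgeR, DESeq2 and limma-voom each 0). At an unadjusted p under 0.05 in edgeR there were 1 with CGRP in IAIE and 2 in CD11c cells, as had 21.8% and 22.1% of all genes. In CD11c cells CGRP lowered 1, *Ocstamp*, and raised 0, where 4.59% of all genes passed downward and 6.29% upward. In control libraries 2 genes, *Dcstamp* and *Ocstamp*, were higher in CD11c cells and 1, *Nfatc1*, was lower, where 10.2% and 10.9% of all genes passed in these directions, 21.2% in all. Among CGRP libraries 2 were higher and 0 lower, where 8.36% and 8.51% passed. The interaction called 0 of the 7 (also 0 with DESeq2 and limma-voom) and 0.151% of all genes, 0.134% upward and 0.0168% downward. At an unadjusted p under 0.05 it also had 0 of the 7, against 8.8% of all genes. *Dcstamp* and *Ocstamp* entered the test through their counts in CD11c libraries, so these shares carry no weight as to the 8 genes as a group. The comparisons share libraries and are not independent of each other.

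**Figure D3:**
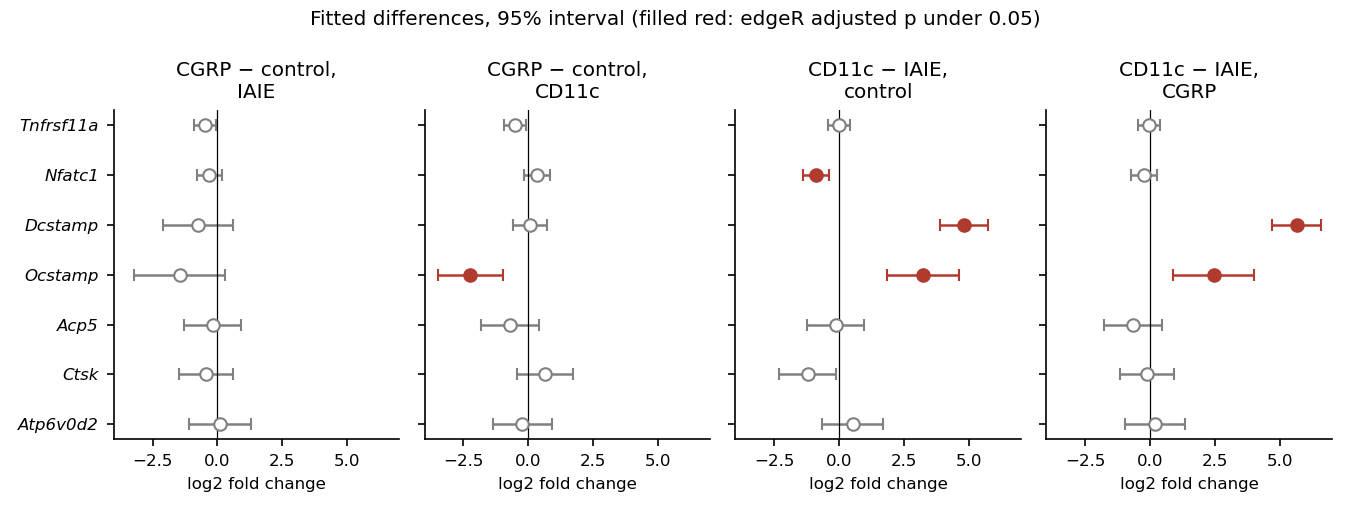
Fitted log2 fold changes (x axis) of the 7 tested genes with 95% intervals in 4 comparisons; red filled points had an edgeR adjusted p under 0.05. *Dcstamp* and *Ocstamp* lie to the right in both subset comparisons, *Nfatc1* lies to the left in controls, and *Ocstamp* alone is filled among the CGRP effects, at -2.24 in CD11c cells.

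The genes whose log2(CPM + 1) over the 12 libraries most resembled that of each gene were taken by Pearson's r among 8464 genes. For *Dcstamp* they were *Vdr* (0.982), *Malt1* (0.978) and *Myo1g* (0.977). For *Nfatc1* they were *Zbtb37* (0.921), *Spns1* (0.903) and *Tk2* (0.897), and for *Tnfrsf11a* *Chchd4* (0.917), *Lsg1* (0.853) and *Vav2* (0.846). For *Acp5* they were *Tmem86a* (0.905), *Pgap6* (0.880) and *Nr1h3* (0.855), for *Ctsk* *Cep20* (0.835), *Urm1* (0.829) and *Uvssa* (0.826), and for *Atp6v0d2* *Hycc2* (0.852), *Tmem219* (0.851) and *Lmbr1l* (0.825). These values describe 12 libraries that share subset, treatment and depth. *Ocstamp* and *Oscar*, with means under 5 CPM, were left out.

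A list of 50 other genes of the osteoclast pathway was read beside the 8. Of these, 48 were in the table and 43 were tested, and *Calcr* and *Siglec15* were not analysed here. With CGRP, 7 rose and 5 fell in IAIE cells, where 5.32% and 3.89% of all genes did so, and 8 rose and 6 fell in CD11c cells, where 6.29% and 4.59% did. The median log2 change over the list was 0.04 in IAIE and 0.08 in CD11c cells, against -0.02 and 0.00 over all genes. The 8 to 6 split in CD11c cells became 7 to 8 under upper-quartile scaling. The interaction called 0 of the 43, with 11 at an unadjusted p under 0.05, as had 8.8% of all genes, and DESeq2 called 2 (*Adam8* and *Cd44*) and limma-voom 0.

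Among ligands, *Tnfsf11*, the gene of RANKL, was at 0 counts in the IAIE libraries and at most 0.816 CPM elsewhere. *Tnfrsf11b* encodes osteoprotegerin, the decoy that binds RANKL. It had 112, 338 and 24 counts in CD11c CGRP libraries (21.5, 83.7 and 4.27 CPM) and 0 to 3 counts in each of the other 9. Summed counts in CD11c cells, 474 against 3 and scaled to library size, gave a ratio of 121 (95% counting interval 41.2 to 589). The gene entered the test only through these 3 libraries. Its edgeR adjusted p was 3.06e-04, and 0.193 with limma-voom. CD11c CGRP replicate 2 held most of the counts, and without it the fitted log2 change went from 6.94 to 5.44 (adjusted p = 0.00671). In the same 3 libraries chondrocyte markers summed to 44.1, 254.7 and 8.18 CPM, against 1.87 to 6.44 CPM in CD11c controls, and fibroblast markers to 366, 390 and 82.9 CPM. CD11c CGRP replicate 2 also held 30 counts of *Ibsp*, a marker of bone-forming cells. The part of these cells in the *Tnfrsf11b* result was not tested. *Csf1*, the gene of M-CSF, did not pass with CGRP (0.65 ± 0.45 in IAIE and 0.73 ± 0.46 in CD11c cells). Its receptor gene *Csf1r* was lower in CD11c than in IAIE controls (-1.28 ± 0.15 on the log2 scale, adjusted p = 4.89e-06).

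Among transcription factors, *Mitf*, a partner of NFATc1 at osteoclast genes, rose with CGRP in CD11c cells from 59.2 ± 12.8 to 118.4 ± 33.1 CPM (0.99 ± 0.25, adjusted p = 0.0122), a call lost without CD11c control replicate 1 (0.0643) or 2 (0.0605) or CD11c CGRP replicate 2 (0.0829). *Fos*, needed for the induction of *Nfatc1* by RANKL, fell in IAIE (-0.60 ± 0.14, adjusted p = 0.00912) and CD11c cells (-0.53 ± 0.14, adjusted p = 0.0178), calls lost without any 1 of 3 and of 4 libraries (0.0579 to 0.0585 and 0.0515 to 0.0810). *Prdm1*, a repressor of the brakes on osteoclast formation, fell in CD11c cells (-0.86 ± 0.18, adjusted p = 0.00327) and stood higher there than in IAIE controls (1.40 ± 0.19, adjusted p = 2.18e-05). *Nfkb2*, which encodes p100 and p52, fell in IAIE cells (-0.59 ± 0.13, adjusted p = 0.0069). Of the brakes, *Irf8* fell with CGRP in IAIE cells (-0.79 ± 0.18, adjusted p = 0.00697) and was lower in CD11c than in IAIE controls (-1.97 ± 0.19, adjusted p = 5.33e-07).

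Among fusion and adhesion genes, *Cd9*, a tetraspanin, rose with CGRP in IAIE (1.05 ± 0.19, adjusted p = 9.63e-04) and CD11c cells (0.86 ± 0.17, adjusted p = 0.00198), and so did the integrin gene *Itgav* (0.80 ± 0.16 and 0.78 ± 0.16, adjusted p = 0.0033 and 0.00335). *Adam8* rose in IAIE cells (0.98 ± 0.16, adjusted p = 4.3e-04) and *Cd44*, the hyaluronan receptor gene, fell in CD11c cells (-1.01 ± 0.12, adjusted p = 1.3e-05). *Sh3pxd2a*, whose product builds podosomes, fell in IAIE cells (-0.97 ± 0.23, adjusted p = 0.0111), a call lost without IAIE control replicate 1 (0.0731) or IAIE CGRP replicate 3 (0.0595). The integrin gene *Itgb3* was lower in CD11c controls (2.83 ± 2.10 CPM) than in IAIE controls (9.16 ± 4.16 CPM) (adjusted p = 0.0411), and 10 of the 12 fits that left out 1 library and 5 other fits did not call it. The adaptor gene *Tyrobp* fell with CGRP in CD11c cells (-0.69 ± 0.14, adjusted p = 0.00192).

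Among acid secretion and matrix genes, *Tcirg1*, the a3 subunit of the proton pump, rose with CGRP in IAIE cells from 126.1 ± 19.7 to 194.9 ± 13.8 CPM (0.63 ± 0.13, adjusted p = 0.00427). *Plekhm1*, a lysosomal trafficking gene, rose in both subsets (0.70 ± 0.17 and 0.68 ± 0.17, adjusted p = 0.0107 and 0.0133). Each of these calls was lost without 1 of 2 libraries: IAIE control replicate 1 (0.0528) or IAIE CGRP replicate 1 (0.0597), and CD11c control replicate 1 (0.0723) or CD11c CGRP replicate 3 (0.0650). The chloride channel gene *Clcn7* did not pass with CGRP (0.18 ± 0.16 and -0.01 ± 0.16). The membrane protease gene *Mmp14* rose in IAIE (0.89 ± 0.24, adjusted p = 0.0211) and CD11c cells (1.45 ± 0.24, adjusted p = 3.73e-04), and the IAIE call was lost without IAIE control replicate 3 (0.0796) or IAIE CGRP replicate 3 (0.0933). *Ctsl* rose in IAIE cells (0.63 ± 0.17, adjusted p = 0.0266), a call lost without any 1 of 5 IAIE libraries (0.0504 to 0.0818). *Mmp9* did not pass with CGRP in IAIE cells (-1.23 ± 0.40, adjusted p = 0.0605).

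**Figure D4:**
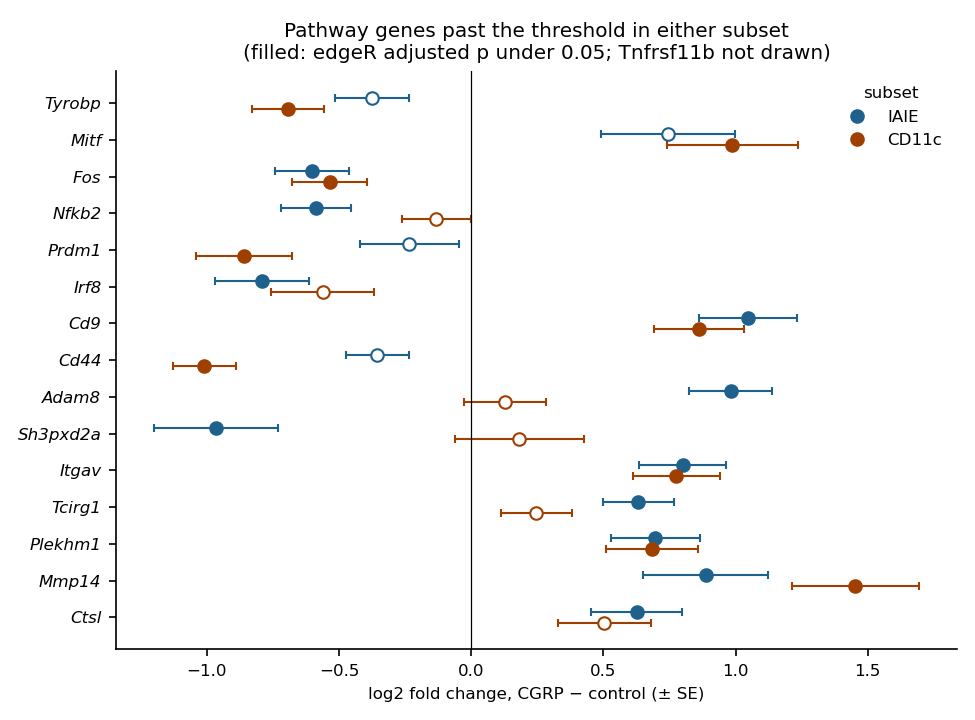
Log2 change with CGRP ± SE (x axis) in IAIE (blue) and CD11c cells (brown) for the named pathway genes past the threshold in at least 1 subset, filled where the edgeR adjusted p was under 0.05. *Tnfrsf11b* is not drawn. *Cd9*, *Itgav*, *Plekhm1* and *Mmp14* are filled to the right of 0 in both subsets, and *Fos* to the left.

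Between the subsets, 25 of the 43 pathway genes differed in control libraries, 8 higher and 17 lower in CD11c cells, where 10.2% and 10.9% of all genes passed. The list had a median of -0.30 against -0.02 over all genes. Among CGRP libraries 8 were higher and 15 lower, where 8.36% and 8.51% of all genes passed, with a median of -0.13 against 0.00. The matrix genes *Mmp9* (-2.94 ± 0.45, adjusted p = 8.84e-05), *Ctsl* (-1.57 ± 0.18, adjusted p = 3.87e-06) and *Ctsb* (-1.05 ± 0.10, adjusted p = 7.26e-07), together with *Plekhm1* (-1.45 ± 0.18, adjusted p = 7.01e-06), *Clcn7* (-0.69 ± 0.16, adjusted p = 0.00432) and *Jun* (-1.36 ± 0.16, adjusted p = 4.33e-06), were lower in CD11c controls. *Cd9* (1.78 ± 0.19, adjusted p = 1.45e-06) and *Adam8* (1.24 ± 0.16, adjusted p = 1.42e-05) were higher there, as were *Dcstamp* and *Ocstamp*. Macrophage markers moved with the lower genes: 7 of the 8 were lower in CD11c cells among controls and 6 among CGRP libraries. Their sum was 6683 to 9232 CPM in IAIE control, 5482 to 7305 CPM in CD11c control, 6171 to 7339 CPM in IAIE CGRP and 3785 to 4730 CPM in CD11c CGRP libraries, and their part in these differences was not tested. Of the 7305 CPM in CD11c control replicate 1, *Lyz2* alone gave 5389 CPM. *Lyz2* did not pass between the subsets (0.24 ± 0.15 in control and -0.16 ± 0.15 in CGRP libraries). *Csf1r* is in both lists. These lists were chosen with results of these libraries known, so their counts are descriptions.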

How the data were processed

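RNA from sorted cells was made into libraries with a stranded total RNA kit for small inputs and sequenced on a NovaSeq instrument. Per the study's methods and the labels, the authors trimmed reads with Trim Galore, checked them with FastQC, ran HISAT2 against mm10 and obtained gene counts with featureCounts. The deposited values are raw counts, unnormalised; versions, annotation and strand setting are not given in the sources used here. The table of the whole series repeated these counts, and 6 of its columns, which no label maps to a sample, were not used. No use of molecular identifiers in the counting is stated, so intervals and floors cover counting error only.

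Genes were filtered with filterByExpr (minimum count 10, minimum total 15), which left 11927, and scaled by TMM. In edgeR (4.0.16, under R 4.3.3), a quasi-likelihood model of the 4 groups used all 12 libraries and gave 5 contrasts, with Benjamini-Hochberg adjustment and a threshold of 0.05. The script was tested on simulated data. SEs are the log2 fold change over the root of F. Alternatives were RLE and upper-quartile scaling, no filter, at least 10 counts in every library, blocks, the compared libraries alone, 1 surrogate variable (sva 3.50.0), thinning to the lowest total, DESeq2 (1.42.0), limma-voom (3.58.1) and leaving out each library. Named were the 8 genes, 16 pathway genes set by name, and up to 6 further pathway genes of smallest p per contrast. Of these, 1 is not reported here. Positions and exon lengths are from GENCODE vM21 (GRCm38). The genes and lists were chosen with earlier results of these data known.

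Nothing in the labels ties a replicate number to an explant. Over 5411 genes, deviations from the group means were compared between IAIE and CD11c CGRP libraries with the same number. They correlated at 0.332, 0.128 and 0.205, which was treated as pairing in alternative fits with a block. Elsewhere not every pair passed 0.1 (range -0.0386 to 0.187). The main fit had no block and took all libraries as unpaired.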

Additional observations from a re-analysis of the deposited data

How the results depend on the processing

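Depth and replicate number limit these results: *Ocstamp*, *Acp5* and the IAIE values of *Dcstamp* rest on few counts, and with 3 libraries per group single libraries carry several calls. Requiring at least 10 counts in every library left *Dcstamp*, *Ocstamp*, *Acp5* and *Atp6v0d2* untested, as well as *Oscar*. The number of the 8 genes past the threshold then became 0 with CGRP in CD11c cells, 1 between subsets in control and 0 in CGRP libraries. Between subsets among CGRP libraries it became 1 with 1 surrogate variable, the compared libraries alone or limma-voom. Leaving out 1 library gave 0 to 1 with CGRP in CD11c cells, 2 to 3 between subsets in control and 1 to 2 in CGRP libraries. The replicate block kept these counts at 0 (CGRP in IAIE), 1 (CGRP in CD11c), 3 and 2 (subsets in control and CGRP) and changed no call of the 8 genes, with *Ocstamp* between subsets in CGRP libraries at an adjusted p of 0.0449. Pathway genes past the threshold for the interaction were 4 with no filter, 1 with the explant block and 2 with DESeq2. Those with CGRP in CD11c cells numbered 8 to 15 over the fits without 1 library, the lowest without CD11c control replicate 1 or CD11c CGRP replicate 3. Over all genes the interaction called 18, and from 2 (limma-voom) to 171 (no filter) elsewhere, including 36 with the replicate block.

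No difference that changed sign had passed the threshold. *Tnfrsf11a* between subsets in control libraries became 0.0005 (RLE), 0.0775 (no filter), 0.0132 (at least 10 counts in every library), 0.0327 (1 surrogate variable), 0.0048 (thinned) and 0.0009 (DESeq2). With 1 surrogate variable *Tnfrsf11a* between subsets in CGRP libraries became 0.0113 and *Atp6v0d2* with CGRP in CD11c cells 0.0394, and thinning turned the *Ocstamp* interaction to 0.35. Leaving out 1 library gave, for *Dcstamp* with CGRP in CD11c cells, -0.0656 to 0.24. *Acp5* ranged from -0.48 to 0.0865 with CGRP in IAIE cells and from -0.42 to 0.28 between subsets in control. *Ctsk* ranged from -0.76 to 0.64 with CGRP in IAIE cells, -0.70 to 0.22 between subsets in CGRP libraries and -0.0101 to 1.43 for the interaction. *Tnfrsf11a* ranged from -0.10 to 0.13 and -0.23 to 0.11 between subsets and -0.28 to 0.0636 for the interaction. *Atp6v0d2* ranged from -0.26 to 0.62 (CGRP in IAIE), -0.71 to 0.99 (CGRP in CD11c), -0.68 to 1.04 and -0.0087 to 0.44 (subsets in control and CGRP) and -0.85 to 0.87 (interaction). Except where the filter left genes untested, the cause was not tested.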

Other observations

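Pathway genes under the count filter were given as values alone. *Lhx2*, a transcription factor gene described as a brake on osteoclast formation, was at 0 counts in every IAIE control library. It had 2 to 12 counts (0.529 to 2.92 CPM) in IAIE CGRP libraries. In the IAIE controls 3 counts correspond to 0.860 to 1.34 CPM. CD11c control libraries held 0 to 2 counts of *Lhx2* and CD11c CGRP libraries 0 to 13. *Car2*, the gene of the carbonic anhydrase that supplies protons for resorption, stood at 2.64 ± 0.465 CPM (SD, n = 3) in CD11c CGRP libraries (2.11 to 2.97 CPM) and reached 2.26 CPM in IAIE CGRP libraries, so that these groups overlapped. *Il34*, the gene of a second ligand of CSF1R, ranged from 0 to 4.03 CPM over the 12 libraries, and *Slc9b2*, a sodium and proton exchanger gene, from 0 to 1.87 CPM. None of these genes was tested.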
